A study of Homo sapiens with 30 samples.

Results

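Epithelial-mesenchymal transition genes were examined in 5 established human breast cancer cell lines treated with BMP4, that is bone morphogenetic protein 4, a secreted ligand related to transforming growth factor beta. The rule takes genes by name and uses no measured value, and the members are every probe of the array annotated to SNAI1, SNAI2, TWIST1, CDH1, CDH2, CDH3, VIM, FN1, EPCAM or OCLN. All 10 genes were found, with 16 of the 41000 probes on the array, which carry 30484 distinct gene or transcript names. For 9 genes the present symbol matched, whereas EPCAM stood on the array under its older symbol TACSTD1. SNAI2, TWIST1, VIM and OCLN had 2 probes each and FN1 had 3, and values are those of the brightest probe unless another is named.

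The cell lines were SK-BR-3, ZR-75-30, MDA-MB-361, HCC1954 and HCC1419, which the study picked for low expression of BMP4 or of both BMP4 and BMP7. Each line was given recombinant human BMP4 or vehicle for 30 min or for 1, 3, 6, 12 or 24 h, with no other agent and no genetic change. Each of the 30 two-colour arrays held 1 line at 1 time point, with Cy5 for the BMP4-treated and Cy3 for the vehicle-treated cells, and each colour was a pool of 3 cultures. There were thus 5 arrays, 1 per line, for each time point and 6 arrays for each line, and the 6 vehicle samples of a line differed in time point, so p-values measure the spread between lines or between time points and not that between cultures. The dyes were never swapped, so a ratio against 0 contains the dye bias of the probe. The measurements below are both on the log2 scale. The ratio is BMP4 over vehicle within an array, and the level is the Cy3 intensity of the vehicle-treated cells after scaling the arrays to a common distribution.

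Epithelial-mesenchymal transition is the programme by which epithelial cells give up their junctions and polarity and take on the shape and motility of mesenchymal cells. SNAI1, SNAI2 and TWIST1 are transcription factors that bind E-box sequences and repress epithelial genes such as CDH1, and their activity is accompanied by a shift from E-cadherin towards N-cadherin and by production of vimentin and fibronectin. In breast tissue the programme is known from development and from invasive, basal-like carcinoma cells, and ligands of the transforming growth factor beta superfamily are known inducers of it in cultured epithelial cells.

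The E-box read by the SNAI factors is CAGGTG, or CACCTG on the other strand, and the wider E-box class, to which TWIST1 also binds, is CANNTG, which contains it. RefSeq promoter sequence of GRCh38.p14 was at hand for 4 of the 10 genes, namely VIM, FN1, CDH2 and OCLN. The 250 bases before the transcript start are shown for OCLN, whose window held the SNAI E-box, and for VIM, whose level differed most between the lines among the mesenchymal genes of the 10. Capitals mark every CANNTG.
OCLN, chr5:69492297-69492546, plus strand: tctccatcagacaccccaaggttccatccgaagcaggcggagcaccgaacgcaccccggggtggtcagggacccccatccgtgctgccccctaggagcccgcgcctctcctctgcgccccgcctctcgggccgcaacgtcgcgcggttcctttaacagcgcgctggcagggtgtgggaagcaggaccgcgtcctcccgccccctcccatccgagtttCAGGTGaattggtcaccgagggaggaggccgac
VIM, chr10:17227991-17228240, plus strand: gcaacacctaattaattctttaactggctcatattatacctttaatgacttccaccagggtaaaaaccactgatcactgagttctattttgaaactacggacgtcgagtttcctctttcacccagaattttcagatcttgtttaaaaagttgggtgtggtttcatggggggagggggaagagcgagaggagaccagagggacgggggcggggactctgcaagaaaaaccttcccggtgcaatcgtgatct
The OCLN window held 1 CAGGTG, which began 33 bases before the start, and the window at another, downstream OCLN start held 1 as well, 133 bases before that start. The windows of VIM, FN1 and CDH2 held no CAGGTG or CACCTG. Of all 35116 windows in the table, 17.5% held CAGGTG or CACCTG and 61.8% held CANNTG, so a match in this window was common. These letters describe the sequence only, and occupancy was not measured.

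On the arrays 58.9% to 70.6% of the probes were well above background in Cy3 and 56.3% to 70.8% in Cy5. ID1, a direct target of BMP signalling, had a ratio of 1.33 ± 0.51 (SD, n = 5) at 1 h and of 1.42 ± 0.38 at 24 h, above 0 in 5 of 5 lines at both times (limma adjusted p = 3.46e-05 and 1.72e-05). Breast epithelial markers, 9 of 9, were above background on all 6 arrays of every line. Of 9 fibroblast markers THY1 was above background on all 6 arrays of every line, COL1A1 in every line but SK-BR-3 (4 of 6 arrays) and FAP in HCC1954 alone, whereas DCN, LUM and PDGFRB were never above it. Of the leukocyte markers CD14, CD3E and CD68 were above it on all arrays of every line, and PTPRC never. Of 4 endothelial markers VWF was above it on all arrays of every line and PECAM1 in HCC1954 alone. HCC1419 and MDA-MB-361 were each scanned on 1 day and SK-BR-3 on 2, none of them shared with another line, so that for these 3 lines scan day and line cannot be told apart. HCC1954 and ZR-75-30 shared 1 scan day, with 3 arrays each.

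The levels in vehicle-treated cells differed between the lines for all 16 probes in limma's moderated F test, which took the time point into account. The share of all probes called in this comparison was 73.1%. The pattern was not shared by the 10 genes, and the line with the highest level was HCC1954 for SNAI2, CDH3, VIM and OCLN, MDA-MB-361 for CDH1, CDH2 and EPCAM, HCC1419 for TWIST1, SK-BR-3 for SNAI1 and ZR-75-30 for FN1.

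**Figure D1:**
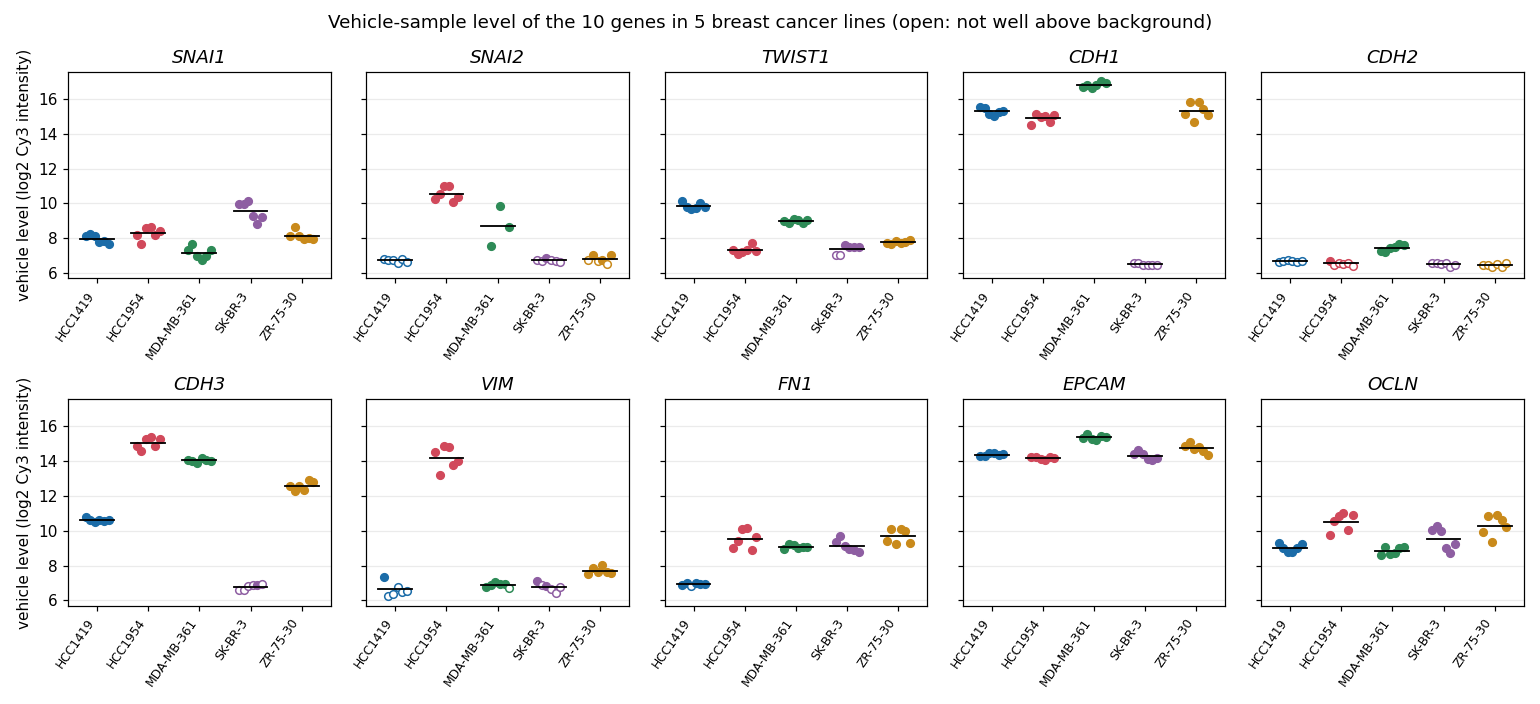
Level of each gene in the vehicle-treated cells (y axis, log2 Cy3 intensity) in the 5 lines (x axis). Points are the 6 arrays of a line from 30 min at left to 24 h at right, open where the probe was not well above background, and bars are means. CDH1 lies between 14.48 and 17.00 in 4 lines and between 6.46 and 6.58, all open, in SK-BR-3, whereas VIM lies at 13.19 or above in HCC1954 and at 8.03 or below elsewhere.

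Among the transcription factors, SNAI1, the gene of Snail, was above background on all 6 Cy3 arrays of every line. Its level in SK-BR-3 was 9.98, 9.96, 10.14, 9.30, 8.80 and 9.24 from 30 min to 24 h, with a mean of 9.57 ± 0.53 (SD, n = 6). The next line was HCC1954 at 8.29 ± 0.35, which was 1.28 lower (limma adjusted p = 3.83e-06), and the 6 arrays of SK-BR-3 lay above all those of the other lines. HCC1954, ZR-75-30 at 8.15 ± 0.27 and HCC1419 at 7.98 ± 0.24 did not differ from one another beyond the spread, although on the shared scan day HCC1954 exceeded ZR-75-30 by 0.46, against 0.15 over all arrays, and MDA-MB-361 was lowest at 7.18 ± 0.34.

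SNAI2, the gene of Slug, was highest in HCC1954, with levels of 10.25, 10.54, 11.02, 11.02, 10.09 and 10.38. In HCC1419, in which it was above background on none of 6 arrays, its level was 6.74 ± 0.10, so that HCC1954 was at least 13.8-fold higher (limma adjusted p = 1.88e-11). SK-BR-3 at 6.74 and ZR-75-30 at 6.80 were above background on 1 and 3 of 6 arrays and did not differ from HCC1419. In MDA-MB-361 the software had marked the spot as an outlier on 3 of 6 arrays, and the remaining levels at 1, 6 and 24 h were 7.54, 9.86 and 8.65. These 3 values put MDA-MB-361 1.89 below HCC1954 (adjusted p = 9.26e-06). The marked spots were bright, at 10.93, 11.20 and 9.46, and with them the difference was 0.94 (adjusted p = 0.0282), so the size of this gap depends on those spots. The second SNAI2 probe was above background on 6 of 30 arrays, and it did not repeat the gap between HCC1954 and HCC1419. By it these lines were at 7.02 and 7.01 and did not differ (limma adjusted p = 0.963). In HCC1419 it was above background on 2 of 6 arrays, at 3 h and 6 h, with 7.85 and 8.05, and in MDA-MB-361 on 0 of 6. Across the 27 arrays with both values the levels of the 2 probes correlated with r = 0.29.

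TWIST1, a basic helix-loop-helix factor, gave the opposite order of HCC1954 and HCC1419. In HCC1419 the level was 10.11, 9.79, 9.68, 9.72, 10.04 and 9.77, with a mean of 9.85 ± 0.18. MDA-MB-361 followed at 8.99 ± 0.11, 0.86 lower (limma adjusted p = 8.92e-08), and the arrays of these 2 lines did not overlap with each other or with those of the remaining lines. ZR-75-30 at 7.79 was above SK-BR-3 at 7.37 and HCC1954 at 7.33, which did not differ from each other (adjusted p = 0.771). The second, dimmer probe also placed HCC1419 first and MDA-MB-361 second, and across the 30 arrays the levels of the 2 probes correlated with r = 0.94, a description over arrays that share 5 lines.

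Of the 3 cadherins, CDH1 and CDH3 ranged widely between the lines, and CDH2 was near background in every line but MDA-MB-361. CDH1, the gene of E-cadherin, the main adhesion molecule of epithelial adherens junctions, had its probe at chr16:67426715-67426774 (hg18). Its level in SK-BR-3 was 6.56, 6.58, 6.48, 6.48, 6.46 and 6.47, with no array above background in either colour. In HCC1954, the next line, it was 14.88 ± 0.26 (SD, n = 6), at least 297-fold higher (limma adjusted p = 3.68e-23), and in MDA-MB-361, the highest line, it was 16.80 ± 0.15, at least 1120-fold higher. These bounds set the mean of the brighter line against the lowest signal well above background on the arrays of the dim line, or the signal of the dim probe where that was higher. HCC1419 at 15.27 and ZR-75-30 at 15.32 did not differ (adjusted p = 0.799), and both were below MDA-MB-361. HCC1954 minus ZR-75-30 was −0.05 on the shared scan day and −0.44 over all arrays.

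CDH3, the gene of P-cadherin, which marks basal and myoepithelial cells of the breast, had its probe 136 kb from that of CDH1 at chr16:67290313-67290372. All neighbours in the order of its levels differed, from HCC1954 at 15.03 ± 0.32 to MDA-MB-361 at 14.03 ± 0.09, ZR-75-30 at 12.57 ± 0.24, HCC1419 at 10.61 ± 0.10 and SK-BR-3 at 6.78 ± 0.15. The last step, HCC1419 over SK-BR-3, was 3.84 (limma adjusted p = 5.85e-19). In SK-BR-3 the probe was above background on 1 of 6 Cy3 arrays, and the software's signal, which has no offset, gave a step of 6.46. CDH1 and CDH3 were thus both at or near background in that line.

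CDH2, the gene of N-cadherin, the cadherin of mesenchymal and neural cells, was above background on all 6 arrays in MDA-MB-361 alone, with levels of 7.26, 7.20, 7.44, 7.49, 7.69 and 7.60. These 6 values lay above all 24 of the other lines, whose means were between 6.46 and 6.69. The difference from HCC1419, the next line, was 0.76 (limma adjusted p = 6.92e-09), which as a bound was at least 1.66-fold. In the software's signal, which has no offset, it was 2.70, so the size of this difference depends on the processing. MDA-MB-361 thus had the highest level of both CDH1 and CDH2 among the 5 lines.

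VIM, the intermediate filament protein of mesenchymal cells, had levels of 14.51, 13.19, 14.84, 14.82, 13.79 and 14.01 in HCC1954. ZR-75-30 was next at 7.71 ± 0.20, which was 6.49 lower (limma adjusted p = 2.39e-18), or 89.7-fold, and MDA-MB-361, SK-BR-3 and HCC1419, at 6.88, 6.77 and 6.64, did not differ from one another. On the scan day that held both lines, with 3 arrays each, HCC1954 exceeded ZR-75-30 by 6.97. The second VIM probe gave the same order of the 5 lines, and its level in HCC1954 was at least 169-fold that in HCC1419, where it was never above background. The endothelial marker PECAM1 and the fibroblast marker FAP were also highest in HCC1954, above background on all 6 arrays there and on none elsewhere. VIM differed in that it was above background on all 6 arrays of ZR-75-30 too. Other markers of these 2 lists were highest in other lines, CDH5 and PDGFRA in SK-BR-3 at 7.71 and 7.48, and COL1A1 in MDA-MB-361 at 9.23. The summed level of the 4 endothelial markers was 9.66 to 10.49 in HCC1954 and 8.60 to 9.64 in the other lines. That of the 9 fibroblast markers was 10.93 to 13.14 against 10.60 to 13.61, and the part of other cells in the VIM level was not tested.

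FN1, the gene of fibronectin, an extracellular matrix protein, separated HCC1419 from the rest. In HCC1419 its level was 6.89, 6.99, 6.84, 6.98, 6.96 and 6.97, and the next line, MDA-MB-361 at 9.07 ± 0.11, was 2.14 higher (limma adjusted p = 1.62e-09), or 3.70 higher in the software's signal. ZR-75-30 at 9.68 and HCC1954 at 9.54 did not differ, nor did HCC1954 and SK-BR-3 at 9.14 or SK-BR-3 and MDA-MB-361, although ZR-75-30 was above both SK-BR-3 and MDA-MB-361. In HCC1954 the 3 arrays of one scan day read 10.12, 10.16 and 9.63 and the 3 of the other 9.03, 9.39 and 8.92, so that the spread within that line followed the day of scanning. On the shared scan day HCC1954 was 0.43 above ZR-75-30, whereas over all arrays it was 0.14 below it. The second FN1 probe was likewise lowest in HCC1419, and the third, which targets another stretch of the transcript, was above background on 2 of 30 arrays.

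EPCAM and OCLN were above background on all 30 arrays. EPCAM, an epithelial cell adhesion molecule, ranged from 14.17 ± 0.07 in HCC1954 to 15.35 ± 0.13 in MDA-MB-361, which was 0.62 above ZR-75-30 (limma adjusted p = 1.66e-06). OCLN, the gene of occludin, a membrane protein of tight junctions whose promoter window is shown above, was highest in HCC1954 at 10.52 ± 0.52 and ZR-75-30 at 10.30 ± 0.61, which did not differ (adjusted p = 0.592). On their shared scan day HCC1954 was 0.97 above ZR-75-30, against 0.22 over all arrays. SK-BR-3 at 9.54 ± 0.62 was 0.75 below ZR-75-30 (adjusted p = 0.0255), and HCC1419 at 9.01 and MDA-MB-361 at 8.86 were lowest. HCC1419 did not differ from SK-BR-3 (limma adjusted p = 0.111). The difference between ZR-75-30 and SK-BR-3 fell to 0.44 with the scan day as a random block and was no longer called (adjusted p = 0.567), nor was it without MDA-MB-361 (adjusted p = 0.0530). By the second OCLN probe it was 0.49 and not called (limma adjusted p = 0.121). That probe placed HCC1419 lowest at 8.14 and MDA-MB-361 next at 8.47, which did not differ (adjusted p = 0.316).

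Over time the vehicle level changed for 0 of the 16 probes with the line as a block. At an unadjusted p under 0.05 in limma's moderated F test the count was 0 of 16, against 9.80% of all probes. The share of all probes called was 0.141%.

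The second question was whether BMP4 changed these genes. At none of the 6 time points did the mean ratio of any of the 16 probes differ from 0 with an adjusted p under 0.05. The share of all probes called was highest at 24 h, with 1.58%, followed by 1 h with 0.973%, 12 h with 0.463%, 3 h with 0.349%, 6 h with 0.176% and 30 min with 0.0805%. At an unadjusted p under 0.05 the counts were 4 of 16 at 1 h, where 14.3% of all probes passed, 1 of 16 at 6 h, where 6.96% did, and 0 of 16 at the other times, where 7.09% to 14.5% did. The late change, the mean ratio of 3, 6, 12 and 24 h minus that of 30 min with the line as a block, was called for 0 of 16 probes (0 at an unadjusted p under 0.05, against 4.99% of all probes, with 0.0927% of all probes called). The same held when the 5 later times were each set against 30 min in 1 moderated F test (0 of 16, with 0.0902% of all probes called). A miss of the threshold does not show that the genes stayed the same, and the individual lines are therefore given below.

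**Figure D2:**
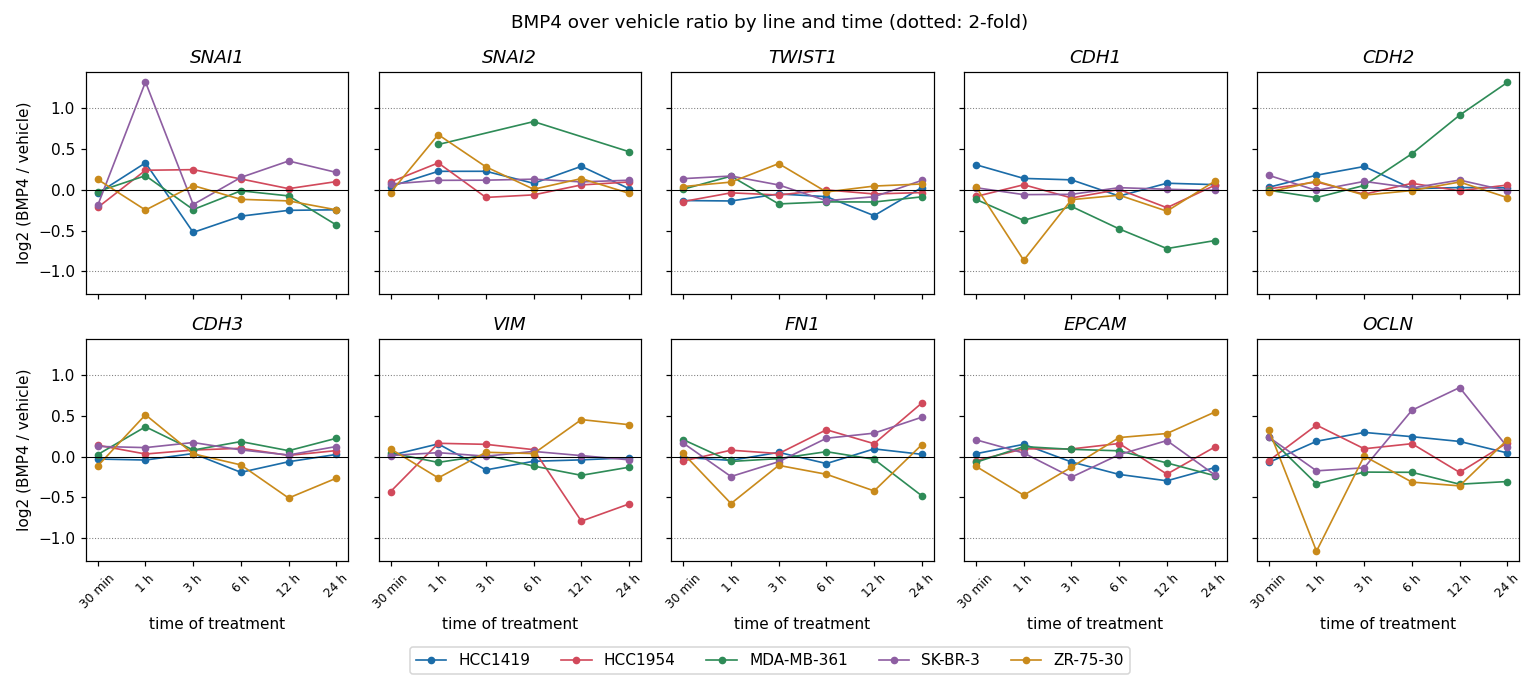
Ratio of BMP4 over vehicle (y axis, log2) against the time of treatment (x axis) for each gene, with 1 line of points per cell line. Solid and dotted horizontal lines mark no change and 2-fold. The points of SNAI2 in MDA-MB-361 at 30 min, 3 h and 12 h are missing because the spots were marked as outliers. CDH2 is at 1.32 in MDA-MB-361 at 24 h and lies between −0.10 and 0.29 in the other lines, and CDH1 lies below 0 at all 6 times in MDA-MB-361.

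SNAI1 had its highest mean at 1 h, when the ratio was 1.32 in SK-BR-3, −0.25 in ZR-75-30, 0.17 in MDA-MB-361, 0.24 in HCC1954 and 0.33 in HCC1419. The mean was 0.36 ± 0.58 (SD, n = 5; limma adjusted p = 0.211), and 4 of 5 lines were above 0. The value of SK-BR-3 was the only one of the 30 SNAI1 ratios past 2-fold, and at 3 h that line was at −0.18. SK-BR-3 was also the line with the highest SNAI1 level.

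SNAI2 came nearest to a call, at 1 h, with ratios of 0.68 in ZR-75-30, 0.56 in MDA-MB-361, 0.33 in HCC1954, 0.23 in HCC1419 and 0.12 in SK-BR-3. All 5 lines were above 0, and the mean was 0.38 ± 0.23 (SD, n = 5; limma adjusted p = 0.0518). It passed the threshold under 5 other settings, among them the cell line as a replicate block, with an adjusted p of 0.00585, and adjusted p ranged up to 0.482 over all alternatives. As a ratio against 0 it holds any dye bias of the probe. At 30 min, with 4 lines, the ratios were between −0.03 and 0.10. The line without a value there was MDA-MB-361, whose marked spot would have read 0.73, above its 0.56 at 1 h. With marked spots kept, the limma adjusted p of the mean at 1 h was 0.120. In 3 of the 5 lines the probe was near background.

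TWIST1 stayed between −0.32 and 0.32 on all 30 arrays, and its late change was −0.02 ± 0.05 (SE; limma adjusted p = 0.993). The second probe lay between −0.24 and 0.29.

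CDH1 in MDA-MB-361 had ratios of −0.12, −0.38, −0.20, −0.48, −0.72 and −0.62 from 30 min to 24 h, below 0 on 6 of 6 arrays. In ZR-75-30 it was 0.04, −0.87, −0.12, −0.07, −0.26 and 0.10, so that the lowest single value was at 1 h. In HCC1419 it was above 0 on 5 of 6 arrays, with a mean of 0.11 ± 0.12 (SD, n = 6), and in HCC1954 it lay between −0.22 and 0.06. SK-BR-3, where the probe was at background in both colours, gives no ratio to interpret. The late change was −0.16 ± 0.10 (SE; limma adjusted p = 0.965), and was below 0 in 4 of 5 lines including SK-BR-3.

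CDH2 in MDA-MB-361 had ratios of −0.01, −0.10, 0.05, 0.44, 0.92 and 1.32, each higher than the one before it from 1 h on and the last past 2-fold. In that line the probe was above background on all 6 arrays in both colours. In the other 4 lines, in which the probe was above background on 1 of 24 Cy3 arrays, the ratios lay between −0.10 and 0.29. The late change was 0.69 in MDA-MB-361, between −0.12 and 0.06 in the other lines, and 0.13 ± 0.13 over all lines (SE; limma adjusted p = 0.976). With 1 array per time point, the course within MDA-MB-361 has no replicate and no test. The 4 arrays from 3 h to 24 h were on 1 slide, and within that slide the ratio was 0.05 at 3 h and 1.32 at 24 h.

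CDH3 stayed within 2-fold on all 30 arrays, and its largest deviations were 0.51 at 1 h and −0.51 at 12 h, both in ZR-75-30. Its late change was −0.02 ± 0.08 (SE; limma adjusted p = 0.997).

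VIM in HCC1954, the line with its highest level, had ratios of −0.43, 0.16, 0.15, 0.09, −0.79 and −0.58. The second probe read −0.13, 0.12, −0.06, −0.03, −0.48 and −0.65 on the same arrays, so both probes were below 0 at 30 min, 12 h and 24 h. In ZR-75-30 the brighter probe read 0.45 at 12 h and 0.39 at 24 h. The late change over the lines was 0.01 ± 0.12 (SE; limma adjusted p = 0.999). With array weights the mean ratio at 12 h was −0.47 and was called (limma adjusted p = 0.0350), against −0.12 without weights (adjusted p = 0.729). Without HCC1954 that mean was 0.05 (adjusted p = 0.849), so its sign rested on this line.

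FN1 ended at 0.66 in HCC1954 and 0.48 in SK-BR-3 at 24 h, against −0.48 in MDA-MB-361, 0.15 in ZR-75-30 and 0.03 in HCC1419, so the lines differed in sign. Its late change was −0.01 ± 0.11 (SE; limma adjusted p = 0.999). The second FN1 probe gave smaller ratios at 24 h, 0.22 in HCC1954, 0.14 in SK-BR-3, −0.18 in MDA-MB-361, −0.11 in ZR-75-30 and 0.0048 in HCC1419. In ZR-75-30 its sign was thus the other one. At 1 h the mean of this probe was −0.18 ± 0.14 (SD, n = 5; limma adjusted p = 0.200), with 0 of 5 lines above 0. EPCAM lay between −0.47 and 0.55, both extremes in ZR-75-30, at 1 h and 24 h.

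OCLN had its lowest ratio in ZR-75-30 at 1 h, −1.16, which the second probe gave as −0.75, and its highest in SK-BR-3 at 12 h, 0.85, which the second probe gave as 0.58. That 1 array of ZR-75-30 at 1 h also gave CDH1 −0.87, FN1 −0.58, EPCAM −0.47, SNAI2 0.68 and CDH3 0.51. On it SNAI1, TWIST1, CDH2 and VIM lay between −0.26 and 0.11. It was the only array of ZR-75-30 on its slide, and the part of the array in these values was not tested. For OCLN the other lines were as follows. In MDA-MB-361 the OCLN ratio was 0.24 at 30 min and between −0.34 and −0.19 at the 5 later times. Its late change over the lines was −0.09 ± 0.16 (SE; limma adjusted p = 0.988).

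Where a gene had another probe with signal, that probe shows which of these single-array deviations recur on other spots of the same array. Over 30 arrays the ratios of the 2 brighter probes correlated with r = 0.95 for OCLN, 0.78 for VIM and 0.73 for FN1, as a description across arrays of 5 lines that share the labelled RNA. For TWIST1, whose ratios were all small, r was 0.22. For SNAI2, whose second probe was mostly at background, r was −0.13 over 27 arrays.

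**Figure D3:**
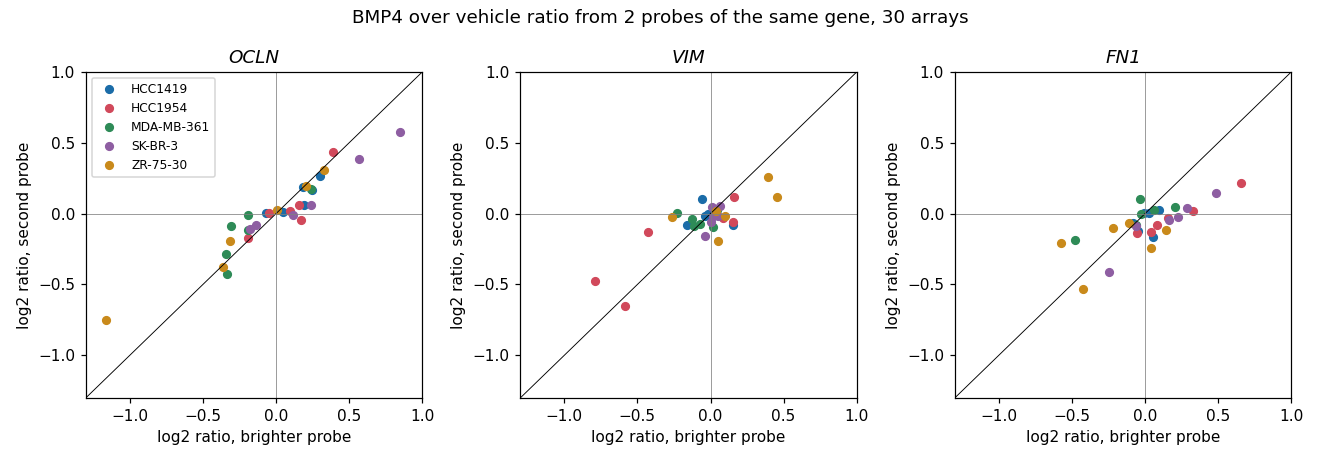
Ratio of BMP4 over vehicle from the brighter probe (x axis, log2) against that from the second probe (y axis, log2) of OCLN, VIM and FN1, 1 point per array and coloured by line, with the diagonal drawn. The OCLN points follow the diagonal with r = 0.95, from −1.16 and −0.75 in ZR-75-30 at 1 h to 0.85 and 0.58 in SK-BR-3 at 12 h.

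The third question was whether the lines differed in their ratio. With the time point in the model, 2 of the 16 probes were called, SNAI2 (limma adjusted p = 0.0106) and CDH1 (adjusted p = 0.0122). The share of all probes called was 22.2%, so 2 of 16 was no more than in the array as a whole. For SNAI2 the line means were 0.62 in MDA-MB-361, from 3 arrays, and between 0.07 and 0.17 in the other lines. The 3 marked spots would have read 0.73, 0.67 and 0.57, and with them the adjusted p was 0.00128. In HCC1419, SK-BR-3 and ZR-75-30 the SNAI2 probe was above background on 0, 1 and 3 of 6 Cy3 arrays. The offset shrinks the ratios of dim probes, and its part in this difference between lines was not tested. For CDH1 the line means were −0.42 ± 0.24 (SD, n = 6) in MDA-MB-361, −0.20 ± 0.35 in ZR-75-30, −0.05 ± 0.11 in HCC1954, −0.01 ± 0.04 in SK-BR-3 and 0.11 ± 0.12 in HCC1419. The mean of SK-BR-3 entered the test, although the CDH1 probe was at background in both colours there and its ratio cannot be interpreted.

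For both genes MDA-MB-361 stood farthest from the other lines, and without it neither was called (adjusted p = 0.812 for SNAI2 and 0.337 for CDH1). Of all 9086 probes called, MDA-MB-361 was the line farthest from the median line for 56.0%. The part of its scan day in these values was not tested and cannot be told apart from the line. The software's own ratio kept the call of CDH1 (adjusted p = 0.0270) but not of SNAI2 (adjusted p = 0.169), and with 1 scaling factor per array in place of the loess curve neither was called (adjusted p = 0.769 for CDH1 and 0.250 for SNAI2). In those settings the range of the line means was 0.68 and 0.59 for SNAI2 and 0.53 and 0.41 for CDH1.

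Whether the late change differed between the lines was called for 0 of the 15 probes that could be fitted. Of these, 1, SNAI1, had an unadjusted p under 0.05, as did 6.00% of all probes. The share of all probes called was 0.0588%. For CDH2, with a late change of 0.69 in MDA-MB-361, the adjusted p was 0.938.

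On single arrays, SNAI1 and CDH2 had 1 ratio each at or above 2-fold and OCLN had 1 at or below it, and the other probes had none. Of all probes on the array 7.80% had such a ratio on at least 1 array. The offset added before the log shrinks the ratios of dim probes. In the deposited ratios, which have no offset, 41.7% of all probes had one. There SNAI2 and CDH2 had 4 each at or above 2-fold, SNAI1 had 1 above and 2 below, and OCLN 1 above and 1 below. The brighter VIM probe had 2 below, the other VIM probe and the second FN1 probe had 1 below each, and the remaining probes had none.

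Further genes of the transition were read from an epithelial list of 41 genes and a mesenchymal list of 38, 1 probe per gene. Against a ratio of 0, 1 epithelial gene was higher at 1 h, 1 higher and 1 lower at 12 h and 1 higher at 24 h, and 0 of the 38 mesenchymal genes were called at any time, where 0.973%, 0.463% and 1.58% of all probes were called at 1, 12 and 24 h. The late change was called for 0 of 41 and 0 of 38. The median ratio of the epithelial list lay between −0.07 and −0.0086 up to 12 h and was 0.03 at 24 h, with 24 of 41 genes above 0. That of the mesenchymal list lay between 0.0032 and 0.03, and that of all probes between −0.0049 and 0.0035.

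The epithelial gene that rose was OVOL1, a zinc-finger repressor known to hold cells in the epithelial state. At 1 h its ratio was 1.46 in HCC1419, 1.19 in MDA-MB-361, 0.96 in ZR-75-30, 0.84 in HCC1954 and 0.43 in SK-BR-3, with a mean of 0.98 ± 0.38 (SD, n = 5; limma adjusted p = 5.10e-05). All 5 lines were above 0 at 3 h and 6 h as well, though not called, and were so and called at 12 h (0.53 ± 0.40; adjusted p = 0.0425) and at 24 h (0.53 ± 0.16; adjusted p = 0.0233), and at 30 min the values lay between −0.09 and 0.18. PKP2, the gene of the desmosomal protein plakophilin 2, fell by 0.35 on the log2 scale at 12 h (SD 0.27; adjusted p = 0.0418), with 0 of 5 lines above 0.

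The ratio differed between lines for 18 of 41 epithelial and 10 of 38 mesenchymal genes, against 22.2% of all probes. In CLDN7 and CLDN4, tight junction claudins, the mean in MDA-MB-361 was 0.34 and 0.44 and that of every other line was below 0 (limma adjusted p = 0.00174 and 0.00452). ST14, the gene of the membrane protease matriptase, LLGL2, a polarity gene, and CGN, the gene of the tight junction protein cingulin, also had their highest means in MDA-MB-361, at 0.21, 0.43 and 0.21 (adjusted p = 0.0107, 0.0108 and 0.0134). In the mesenchymal list MSN, the gene of the membrane linker moesin, stood out in HCC1954 with a mean of −0.35 against −0.03 to 0.01 in the other lines, where it was near background (adjusted p = 0.000467). TCF3, FBLN1, LEF1 and CALD1 had their lowest means in MDA-MB-361, between −0.45 and −0.34. Thus in MDA-MB-361 the mean ratio of CDH1 was below 0 while those of CLDN4 and CLDN7 were above it.

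The levels of the lists differed between lines for 40 of 41 epithelial and 33 of 38 mesenchymal genes, against 73.1% of all probes. All 41 epithelial genes were above background on all 6 arrays in 4 lines, and 40 of them in HCC1419. Of the mesenchymal genes 25 were so in HCC1954, 23 in MDA-MB-361, 23 in ZR-75-30, 20 in SK-BR-3 and 14 in HCC1419. MSN was above background on all 6 arrays in HCC1954 and on at most 1 of 6 in any other line, and TGFBI and TGFB2, a secreted matrix protein and a ligand of the superfamily, were also highest in HCC1954, at 14.54 and 13.09. KRT19, a keratin of luminal cells, was lowest there, at 11.21 against 17.53 to 17.61, as was CLDN3, another claudin, at 9.35 against 11.98 to 13.21. MUC1, an apical mucin, was lowest in SK-BR-3, at 9.75 against 12.37 to 12.91. ZEB1 and ZEB2, further E-box binding repressors of CDH1, were above background on at most 1 of 6 Cy3 arrays of any line.

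**Figure D4:**
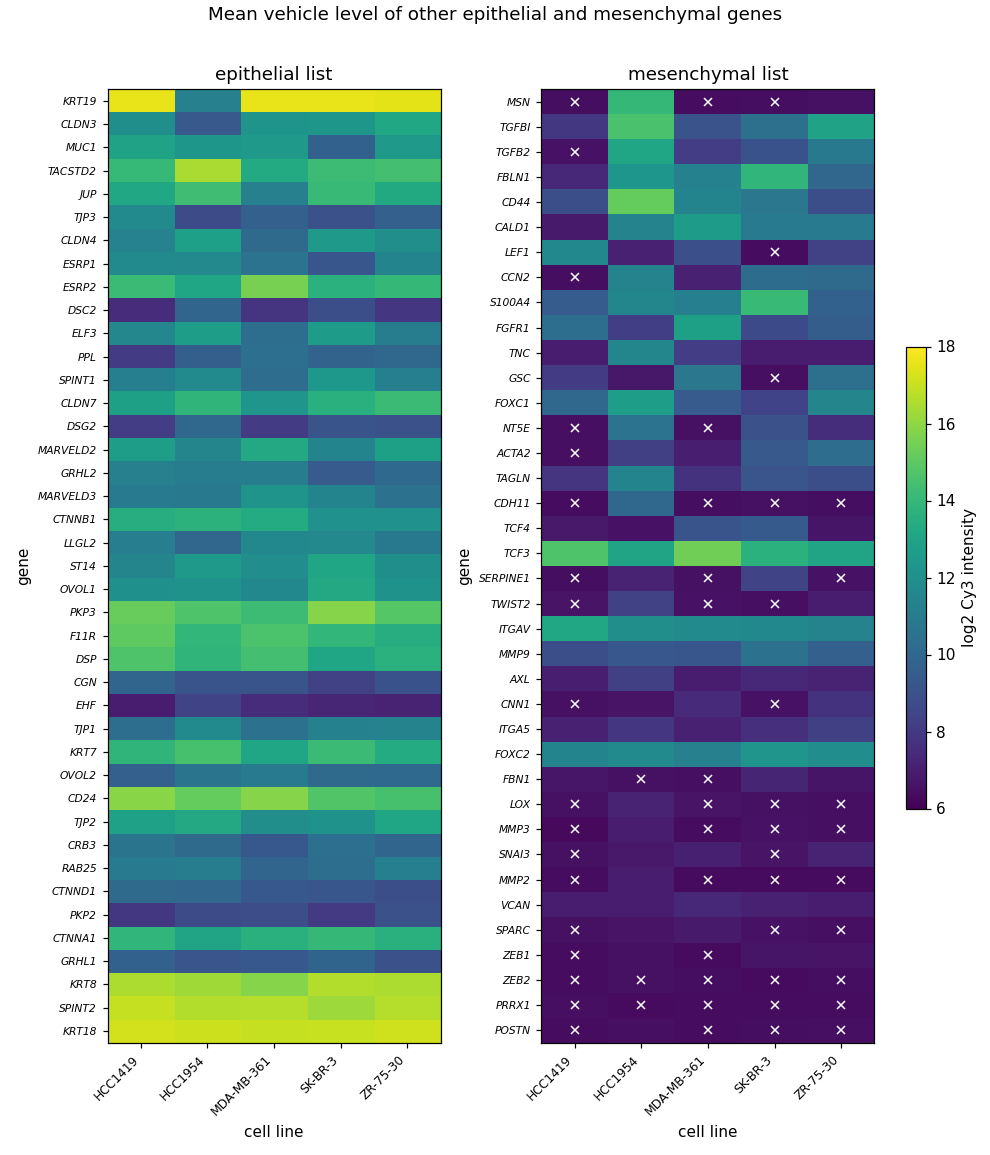
Mean level in the vehicle-treated cells (colour, log2 Cy3 intensity) of the other epithelial (left) and mesenchymal (right) genes in the 5 lines, with genes ordered by the range of their line means. A white cross marks a line in which the probe was above background on none of 6 arrays. Colours compare the lines within a gene, and not genes with each other. MSN at the top of the mesenchymal list is bright in HCC1954 alone and between 6.42 and 6.54 elsewhere, and KRT19 at the top of the epithelial list is lowest there, at 11.21.

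The genes whose vehicle levels were most like those of a member were sought by Pearson's r over the 30 arrays among the 28291 probes above background on all 6 arrays of at least 1 line, leaving out names that are only clone or transcript accessions or open reading frames. For VIM they were SLC43A3 (r = 0.99), LYN (0.99) and BTNL9 (0.99), for CDH1 CTPS2 (0.98), PRPS2 (0.98) and INPP4B (0.98), for CDH3 GALNT2 (0.98), HLA-F (0.97) and FAM57A (0.97), and for SNAI2, over the 27 arrays with a value, TITF1 (0.97), HOXA3 (0.97) and B3GNT5 (0.96). With 5 lines behind the 30 arrays, such values describe a shared pattern across 5 lines.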

How the data were processed

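Two-colour Agilent whole human genome arrays, 30 in all, were taken from the scanner files. Each channel was a pool of 3 cultures per the labels. Per the file headers the authors used Feature Extraction 9.5.1.1 with probe positions on hg18, whereas the study's methods name another version. The deposited mean, background and processed signals are intensity values, and the deposited series matrix holds log2 ratios, whose lowest correlation with the software ratio was 0.99986 and whose array medians were 0. The software's p-values for single spots were not used. Dyes were not swapped.

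Spots were background corrected by normexp with an offset of 50, which shrinks ratios of dim probes, and normalized within arrays by loess with control spots at weight 0 in limma 3.58.1 (R 4.3.3). Spots that the software marked as an outlier, by non-uniformity or within a population, were left out. Saturation touched at most 1 probe per array and led to no exclusion. Spots of a probe were averaged. Levels are log2 Cy3 intensity after Aquantile scaling between arrays. The number of arrays limits the precision.

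Models were fitted by lmFit and eBayes, p-values were adjusted by Benjamini-Hochberg across the whole array, and calls were made below 0.05. The ratio was tested against 0 at each time point without a block, for late and any change over time with the line as a fixed block, and between lines with the time in the model. Levels were tested between lines and over time in the same way. The 5 lines are the replicates of a time point, and the same number marks the same line at each time. Scan day and slide served as blocks in alternatives, as did the other settings named below. The scripts were tested on simulated data.

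Every probe of the 10 genes is reported. From each list, up to 5 called genes per ratio test with the smallest p and the 3 genes with the largest range of line mean levels are named, as are the 3 genes closest in level to CDH1, CDH3, VIM and SNAI2, and further ones were named after their values were seen (ZEB1, ZEB2, ESRP1, ESRP2, GRHL2, CD44 and the neighbours of CDH1). The rule for the members uses names alone, but the names in it and the lists were chosen with earlier results of these data known. One leukocyte marker is not reported here.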

Additional observations from a re-analysis of the deposited data

Results flagged for a closer look

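Of 109 sets of 4 to 6 values tested for 1 value far from the rest, by Dixon's criterion on the gap over the range, 12 held one. The criterion is set to mark about 1 in 20 sets of independent normal values. These sets share lines and arrays, and the share over all probes was not computed, so 12 is not read as an excess. MDA-MB-361, the line farthest from the median line for 56.0% of the 9086 probes whose ratio differed between lines, gave 6 of the 12. These were the ratios of CDH2 at 6 h (0.44, other lines −0.01 to 0.08), 12 h (0.92, others −0.01 to 0.12) and 24 h (1.32, others −0.10 to 0.06), of CDH1 at 6 h (−0.48, others −0.08 to 0.03) and 24 h (−0.62, others −0.01 to 0.10), and of SNAI2 at 6 h (0.84, others −0.06 to 0.13). In the other lines CDH2 was above background on 1 of 6 Cy3 arrays in HCC1954 and on 0 of 6 in HCC1419, SK-BR-3 and ZR-75-30. SNAI2 was so on 0, 1 and 3 of 6 in HCC1419, SK-BR-3 and ZR-75-30. The offset shrinks the ratios of dim probes, and its part in these flags was not tested.

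ZR-75-30 gave 3, namely the ratio of EPCAM at 1 h (−0.47, other lines 0.04 to 0.15), that of CDH3 at 12 h (−0.51, others −0.06 to 0.07) and the SNAI1 level at 1 h (8.66, its other arrays 7.94 to 8.15). The remaining ones were the VIM ratio in HCC1954 at 30 min (−0.43, others 0.01 to 0.10), the CDH2 ratio in SK-BR-3 at 30 min (0.18, others −0.03 to 0.03, with the probe at background) and the CDH3 level in HCC1419 at 30 min (10.80, its other arrays 10.52 to 10.62). In the moderated F test of limma the ratio depended on the line for SNAI2 (adjusted p = 0.0106) and CDH1 (adjusted p = 0.0122).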

How the results depend on the processing

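The count of probes called against 0 at 1 h, which was 0, became 1, namely SNAI2, with no background correction (adjusted p = 0.0422), with dim probes left out (0.0483), with the cell line as a replicate block (0.00585) and, chosen after seeing the data, with the slide as a random block (0.0412). Leaving out 1 line at a time gave 0 to 1, the 1 without MDA-MB-361 (0.0222). At 12 h the count of 0 became 1, VIM, with array weights. The count of probes whose ratio differed between lines, which was 2, became 0 with 1 factor per array and 4 with array weights (CDH1, CDH3, FN1 and SNAI2). It was 3 with the software ratio (CDH1, CDH3 and SNAI1) and with no background correction (CDH1, SNAI2 and TWIST1), and 2 with the series matrix, but CDH1 and CDH3. It was 0 to 3 with 1 line left out, the 0 without MDA-MB-361 and a 1 without HCC1419. The replicate block changed no other call, and without it the late change was called for 0 probes as well. The count of probes whose level differed between lines was 12 to 16 over the alternatives. With dim probes left out it was 12, which were all the probes that remained. Of 149 values of the late change under alternatives 0 were called and 31 had the other sign, and of 89 level differences 0 had the other sign and 3 were no longer called, all of OCLN (adjusted p = 0.567 with the scan day and 0.145 with the slide as a random block, and 0.0530 without MDA-MB-361). The software's signal, which has no offset, gave wider level differences where 1 line was dim, such as 11.88 for CDH1 between HCC1954 and SK-BR-3. The cause of these changes was not tested.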

Other observations

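The probes next to CDH1 and CDH3 were read after the values of SK-BR-3 had been seen. The array held 28 probes with hg18 coordinates within 500 kb of the CDH1 probe on chromosome 16. Of these, 18 were above background on all 6 Cy3 arrays in SK-BR-3, against 23 to 25 in the other lines. The 28 include the CDH1 and CDH3 probes themselves, which were above background on 0 and 1 of 6 arrays in SK-BR-3. Both were above it on all 6 arrays of each other line. Part of the lower count in SK-BR-3 is therefore the signal that prompted the look. A probe annotated to the clone AI420834, also among the 28, lies at chr16:67426714-67426773. It covers nearly the same genomic bases as the CDH1 probe and is thus no separate neighbour. This probe was above background on none of 6 arrays in SK-BR-3 (level 6.28) and on all 6 in each other line (levels 7.08 to 7.35). On the CDH3 side, ZFP90, a zinc-finger gene, was detected on all 6 arrays of SK-BR-3 by its brighter probe, but at 7.79 against 8.51 to 9.87 elsewhere. Farther out on the same side, PRMT7, an arginine methyltransferase gene, was at 13.07 in SK-BR-3 by its brighter probe, against 12.41 to 12.86. On the CDH1 side, FLJ12331 was at 13.23 in SK-BR-3 by its brighter probe, between the lowest (12.19) and highest (13.69) of the other lines. HAS3, which makes hyaluronan and lies beyond FLJ12331, was at 13.18 in HCC1954 and between 6.86 and 7.88 elsewhere by one probe, and between 6.50 and 6.90 in all 5 lines by its other probe.

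Among genes outside the 10, named after their values were seen, ESRP1 and ESRP2, splicing regulators of epithelial cells, and GRHL2, a transcription factor that maintains CDH1 expression, were above background on all 6 arrays of every line. ESRP1 and GRHL2 were lowest in SK-BR-3, at 9.22 and 9.42 against 10.58 to 11.71 and 10.08 to 11.22. CD44, a hyaluronan receptor, was highest in HCC1954 at 15.18, against 8.88 to 11.40.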
